A study of Mus musculus with 24 samples.

Results

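The 41 genes described here act at the start and the progress of DNA replication, and were measured by RNA sequencing in P815, a mouse mastocytoma (mast cell tumour) line. They were chosen by symbol alone: each of the 41 symbols matched exactly 1 of the 55385 genes in the deposited table, and all 41 were among the 12183 genes expressed highly enough to be tested (1 FPKM or more in at least 3 libraries). FPKM is a fragment count scaled by gene length and by library depth. By role, 10 genes serve origin licensing, 6 helicase activation, 6 are polymerase and primase subunits, 7 belong to the sliding clamp, its loader or the single-strand binding protein, 2 process and join Okazaki fragments, 4 supply nucleotides, 4 serve chromatin assembly or histone mRNA, and 2 encode E2F activators.

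There were 24 libraries in 8 groups of 3. NC cells carried a negative control vector and SH cells a vector expressing a short hairpin RNA against Esr1, the gene of estrogen receptor alpha. ICI cells received ICI-182780 (fulvestrant), which binds the receptor and promotes its loss, and Tamo cells received tamoxifen, a selective receptor modulator. Every arm has a group without β-estradiol (E2) and a group with it; groups with the hormone are written NC_E2, SH_E2, ICI_E2 and Tamo_E2. Treatment lasted 24 h according to the labels, which state no time for NC and SH without E2. The labels give no dose, vehicle group or untransfected group, do not say that the ICI and Tamo arms carried a vector, and do not say whether the hairpin cells are a pool or a clone. All cells grew in medium with fetal bovine serum. Within a group the libraries are numbered 1, 2 and 3, and the labels do not say what a number stands for. Nor do they say whether the 3 libraries come from different cultures, so p-values measure the spread between these libraries, which may be technical.

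Libraries held 42.1 to 68.8 M estimated counts. Of the mast cell markers, Kit (98.3 to 175 FPKM), Cpa3 (134 to 586) and Gata2 (138 to 261) were high in every library, whereas the IgE receptor genes Fcer1a (at most 0.937 FPKM) and Ms4a2 (at most 1.203) were low or at the table's placeholder for no signal. Markers of epithelial cells and lymphocytes summed to at most 0.580 and 0.317 FPKM in any library, fibroblast markers to at most 2.27 FPKM, and macrophage markers to 20.8 to 36.1 FPKM, of which Cd68 had 16.3 to 25.2, Lyz2 3.04 to 13.6 and the defining receptor gene Csf1r at most 0.0867. Esr1 itself was low throughout, at 0.161 to 0.520 FPKM, and its values in SH (0.347, 0.227 and 0.260 FPKM) overlapped those in NC (0.404, 0.435 and 0.187).

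Before a cell copies its DNA, the origin recognition complex, with Cdc6 and Cdt1, loads the ring-shaped MCM helicase onto origins in G1. At the G1 to S transition Cdc45 and the GINS complex join MCM and activate it, DNA polymerase alpha with primase lays down primers, and polymerases delta and epsilon extend them on the PCNA clamp. Many of these genes are transcribed in late G1 by E2F factors once the RB family proteins that hold E2F back are phosphorylated. In bulk RNA, fewer cells in a phase and less RNA per cell cannot be told apart.

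Promoters were read from RefSeq (GRCm38.p6, 250 bases before to 50 bases after each annotated start), where 34 of the 41 genes had an entry. Words of the E2F type were searched on both strands with the letters TTTGGCGC, TTTCCCGC, TTTCGCGC and TTTGCCGC, and overlapping words were counted separately. Counting any annotated start of a gene, such a word was present for 14 of 34 genes (41.2%). It was present for 423 of the 8240 tested genes with an entry (5.13%) and for 2.60% of all 27025 genes with an entry. The letters CCAAT (either strand), the core of the NF-Y motif, were in 22 of 34 (64.7%), against 43.6% of tested genes. A match of letters is a description and not a binding site. Stretches upstream of 5 starts are printed 5′ to 3′ on the strand of the gene, with the E2F-type words in capitals, because these genes span the range of the difference between replicate numbers described further on: Orc1 and Cdc6 with large falls, Mcm5 with the smallest p-value, and Mcm6 and Pola1 with small falls. They lie at chr4:108579387-108579453 (plus strand, Orc1), chr11:98907973-98908060 (plus, Cdc6), chr8:75109316-75109407 (plus, Mcm5), chr1:128359706-128359855 (minus, Mcm6) and chrX:93632246-93632333 (minus, Pola1).
Orc1: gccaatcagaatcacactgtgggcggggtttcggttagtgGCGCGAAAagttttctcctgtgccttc
Cdc6: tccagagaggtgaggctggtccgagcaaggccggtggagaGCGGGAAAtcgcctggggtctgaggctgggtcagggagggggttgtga
Mcm5: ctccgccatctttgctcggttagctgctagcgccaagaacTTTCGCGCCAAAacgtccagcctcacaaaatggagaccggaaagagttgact
Mcm6: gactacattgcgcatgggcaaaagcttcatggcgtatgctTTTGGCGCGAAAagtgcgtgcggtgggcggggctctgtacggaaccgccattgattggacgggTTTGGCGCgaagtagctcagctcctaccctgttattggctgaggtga
Pola1: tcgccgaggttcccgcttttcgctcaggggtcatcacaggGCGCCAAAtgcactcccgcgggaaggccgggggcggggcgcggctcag
In Mcm5 and in the more distant site of Mcm6 words on opposite strands overlap. Orc1 has its word 27 bases before the start, Cdc6 and Pola1 have theirs 138 bases before it.

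Levels of the 41 genes, as the mean over 24 libraries, ran from 180 FPKM for Pcna (ENSMUSG00000027342, GRCm38 chromosome 2, 132249162 to 132253314), the sliding clamp, to 2.61 FPKM for the activator E2f2. After Pcna stood the helicase subunit Mcm3 (132 FPKM), the ribonucleotide reductase subunit Rrm2 (120 FPKM) and Mcm6 (97.6 FPKM). The other core helicase genes, Mcm5, Mcm4, Mcm2 and Mcm7, followed at 60.9, 59.4, 52.5 and 51.7 FPKM, and the SD over libraries of each (7.43 to 15.6 FPKM) exceeded the gaps between them. Genes whose products load the helicase were much lower, with Cdt1 at 23.8, Cdc6 at 9.39 and Orc1 at 6.81 FPKM. The helicase partners Cdc45 and Mcm10 had 14.5 and 5.15 FPKM, and the catalytic polymerase subunits Pold1, Pola1 and Pole 10.6, 7.87 and 7.34 FPKM. E2f1 stood at 8.94 FPKM.

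**Figure D1:**
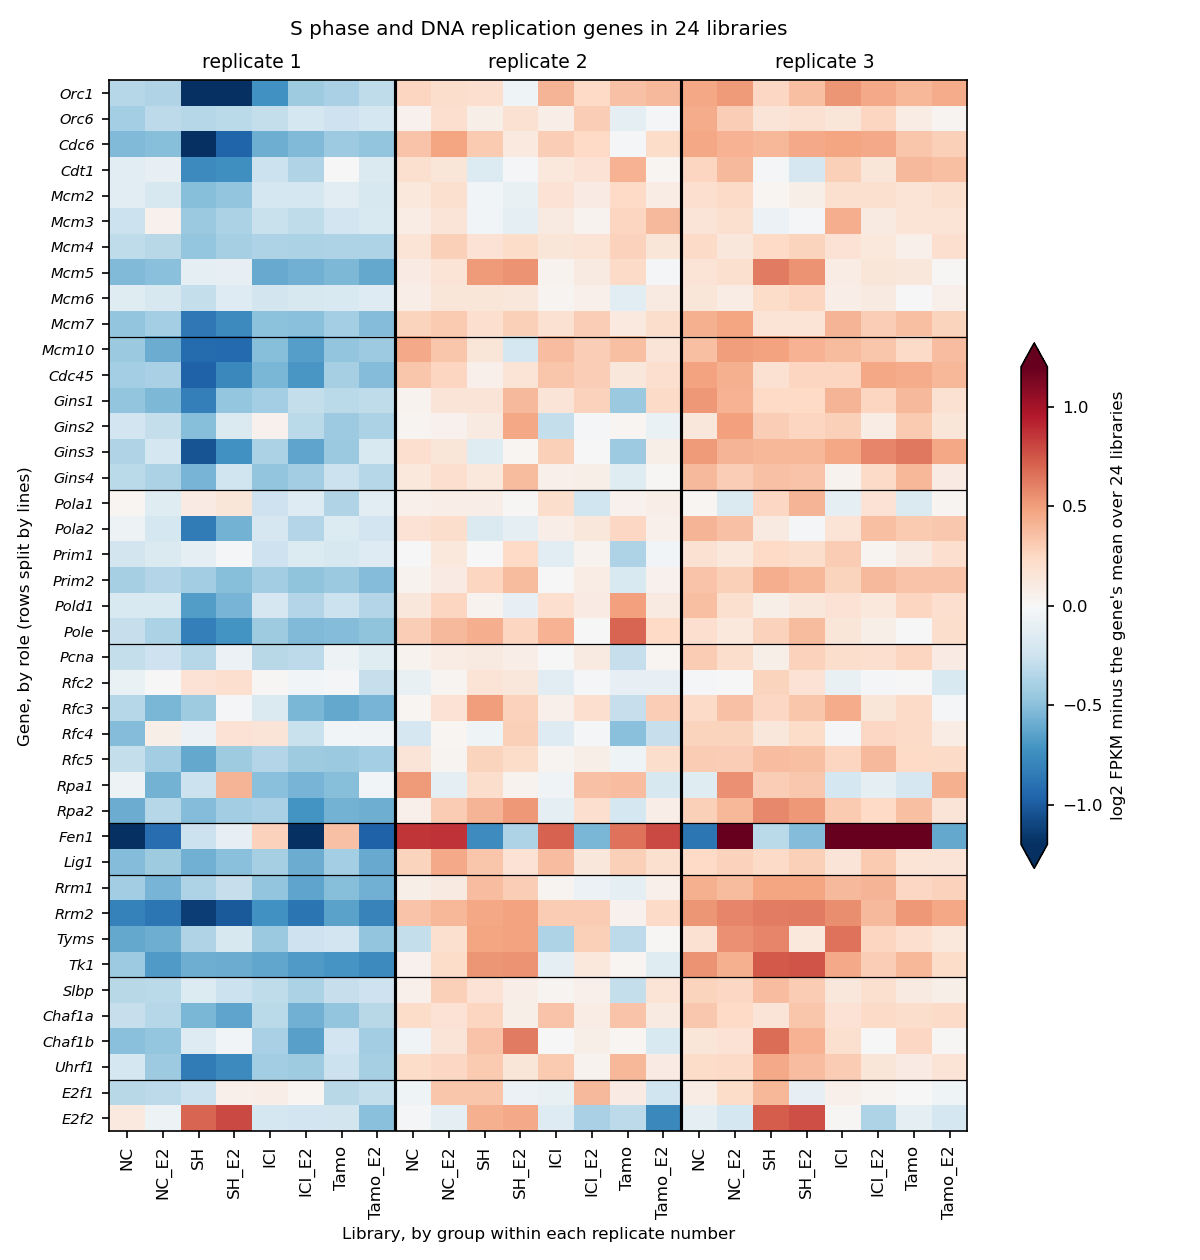
Heat map of log2 FPKM minus each gene's mean over the 24 libraries (colour scale limited at -1.2 and 1.2, with values beyond it in the end colours). Columns are libraries ordered by group within replicate numbers 1, 2 and 3, and rows are the 41 genes split by role. The replicate 1 columns are blue for nearly all genes in each group, and E2f2 is red in SH and SH_E2. Fen1 scatters widely. Its replicate 1 value is the lowest of the group in 6 of 8 groups, but lies above the gene's mean in ICI and Tamo.

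The libraries numbered 1 had less RNA of this programme than those numbered 2 and 3 in every group. Fitted within groups over all 24 libraries, replicate 1 against the mean of replicates 2 and 3 gave 38 of 41 genes lower and 0 higher at an adjusted p under 0.05 (edgeR quasi-likelihood, Benjamini-Hochberg over all 12183 genes tested). This fit counts the 8 libraries of a number as separate, so its p-values measure the spread left between libraries within a number. If a number marks a shared batch or day, which the labels do not say, each number is a single unit. Over all tested genes 44.1% were called, 21.5% lower and 22.6% higher, so calls over all genes were split about evenly between the directions. The median log2 difference was -0.62 over the 41 genes and 0.02 over all tested genes. In 22 of the 41 genes (53.7%) each of the 8 replicate 1 libraries lay below each of the 16 others, which held for 3.14% of all tested genes. Summed over the 41 genes, replicate 1 libraries had 902 to 1029 FPKM, replicate 2 libraries 1296 to 1431 and replicate 3 libraries 1393 to 1539, with no overlap between number 1 and the others. As a share of all estimated counts this was 0.416 to 0.461%, 0.603 to 0.646% and 0.636 to 0.691%.

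Among licensing genes, all 10 passed as lower in replicate 1, with a median of -0.54. Orc1 (ENSMUSG00000028587, chromosome 4, 108579423 to 108595580), the largest subunit of the origin recognition complex, had a lowest, median and highest level of 2.36, 4.83 and 5.18 FPKM in replicate 1. Its levels were 6.16, 7.59 and 8.47 FPKM in replicate 2 and 7.596, 8.74 and 9.26 in replicate 3. The 8 replicate 1 libraries were thus all below the lowest of the others, and the fitted difference was -1.02 ± 0.10 (SE; edgeR adjusted p = 5.72e-07). Cdc6 (chromosome 11, 98907801 to 98923940), the loader ATPase, ran from 3.82 to 6.60 FPKM (median 6.17) in replicate 1, from 8.77 to 12.3 (median 10.7) in replicate 2 and from 10.9 to 12.3 (median 12.0) in replicate 3. Its difference was -0.999 ± 0.08 (edgeR adjusted p = 4.51e-08), again without overlap. Cdt1, the partner of Cdc6 in loading, differed less, by -0.50 ± 0.05 (edgeR adjusted p = 7.02e-07), and its replicate 1 range of 13.7 to 23.2 FPKM overlapped those of replicate 2 (20.8 to 31.1) and replicate 3 (20.2 to 30.6). Of the 6 helicase subunits, Mcm7 had the largest difference at -0.86 ± 0.05 and Mcm6 the smallest at -0.31 ± 0.03, with Mcm2 at -0.41 ± 0.03. Mcm5 (chromosome 8, 75109569 to 75128439) had the smallest p of the 41 (-0.70 ± 0.02, edgeR adjusted p = 3.51e-12). It had 38.6 to 41.5 FPKM in the replicate 1 libraries outside SH and SH_E2 and 54.3 and 55.1 FPKM inside them, each below its own group's other libraries.

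Helicase activation showed the same direction, with all 6 genes lower and a median of -0.74. Mcm10, which helps the active helicase to form, had 2.57, 3.34 and 3.62 FPKM (lowest, median, highest) in replicate 1, 4.24, 6.11 and 6.72 in replicate 2 and 5.75, 6.36 and 6.95 in replicate 3. No replicate 1 library reached the others, and the difference was -0.96 ± 0.07 (edgeR adjusted p = 8.33e-09). Cdc45 differed by -0.91 ± 0.05 (edgeR adjusted p = 5.69e-10). The 4 subunits of GINS, which bridges MCM and Cdc45, ranged from -0.46 ± 0.08 for Gins2 to -0.77 ± 0.09 for Gins3, and in 3 of them (Gins1, Gins2 and Gins3) the replicate 1 range overlapped that of replicate 2.

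All 6 polymerase and primase genes were lower, by very different amounts. Pole, the catalytic subunit of the leading strand polymerase, was at 4.01 to 5.86 FPKM in replicate 1 against 7.05 to 11.5 in the other libraries, with no overlap and a difference of -0.80 ± 0.08 (edgeR adjusted p = 2.25e-07). Pola1, the catalytic subunit of polymerase alpha, was at 6.09 to 8.62 FPKM against 6.63 to 10.4, and replicate 1 was lowest in only 4 of 8 groups. Its difference of -0.17 ± 0.06 (edgeR adjusted p = 0.0313) was the smallest of the genes that passed. It did not pass with limma (adjusted p = 0.0894 at a pseudocount of 1) or after leaving out 6 single libraries, where the edgeR adjusted p was 0.0511 to 0.0799. Its partner Pola2 and the primase subunits Prim1 and Prim2 differed by -0.52 ± 0.05, -0.27 ± 0.05 and -0.69 ± 0.05.

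Of the 7 genes of the clamp, its loader and RPA, 5 were lower and 2 did not pass. Pcna was at 141 to 171 FPKM in replicate 1, 147 to 192 in replicate 2 and 187 to 220 in replicate 3, so replicate 1 overlapped replicate 2 but not replicate 3 (-0.36 ± 0.06, edgeR adjusted p = 4.33e-05). Of the 4 clamp loader subunits listed, Rfc3 (-0.64 ± 0.08) and Rfc5 (-0.66 ± 0.05) were lower, whereas Rfc2 (-0.03 ± 0.03, edgeR adjusted p = 0.483) and Rfc4 (-0.12 ± 0.08, edgeR adjusted p = 0.241) did not pass. Rfc2 ranges overlapped almost fully, 29.3 to 40.8 FPKM in replicate 1 against 31.4 to 42.8 in the others. Rpa2, a subunit of the single-strand binding protein RPA, differed by -0.80 ± 0.07 with no overlap, and Rpa1, its large subunit, by -0.42 ± 0.13 with wide overlap.

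Both genes of Okazaki fragment completion passed, with very different certainty. Lig1, the ligase that seals the nicks, was at 13.8 to 15.9 FPKM in replicate 1 against 23.1 to 28.9 in the others (-0.78 ± 0.04, edgeR adjusted p = 1.62e-10). Fen1 (chromosome 19, 10199132 to 10204169), the flap endonuclease, varied more than any other member, from 7.10 to 62.7 FPKM, an 8.84-fold range. It had 7.10, 47.0 and 14.3 FPKM in NC replicates 1, 2 and 3, 13.2, 45.1 and 17.0 in Tamo_E2, but 21.7, 15.4 and 20.8 in SH. Replicate 1 was the lowest library in 6 of 8 groups, all but SH and SH_E2, where it was the highest, and high and low values occurred within replicates 2 and 3 alike. Its difference of -0.94 ± 0.34 (edgeR adjusted p = 0.0322) did not pass after leaving out replicate 1 of NC, NC_E2, ICI_E2 or Tamo_E2 or replicate 2 of Tamo_E2 (edgeR adjusted p 0.0565 to 0.0820), nor without the filter on low values (0.0566). Fen1 overlaps Tmem258 on the opposite strand, which averaged 57.5 FPKM. The strand protocol is not stated, so reads of these genes cannot be told apart.

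Nucleotide supply held the largest difference of the 41 genes. Rrm2 (ENSMUSG00000020649, chromosome 12, 24708241 to 24714146), the regulated subunit of ribonucleotide reductase, had 50.6, 61.9 and 71.0 FPKM in replicate 1, 114, 139 and 154 in replicate 2 and 145, 161 and 171 in replicate 3. On average replicate 1 was at 41% of the mean of the others, far outside their range (-1.31 ± 0.07, edgeR adjusted p = 2.77e-10). Its large subunit Rrm1 differed by -0.74 ± 0.04. Thymidine kinase, Tk1, was at 4.87 to 6.12 FPKM against 7.49 to 13.99 (-0.97 ± 0.06, edgeR adjusted p = 2.42e-09), and thymidylate synthase, Tyms, which overlapped, at 9.58 to 12.8 against 11.3 to 23.0 (-0.62 ± 0.11, edgeR adjusted p = 0.000129).

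All 4 genes of chromatin assembly and histone mRNA were lower. Uhrf1, which reads hemimethylated DNA behind the fork, was at 21.6 to 33.4 FPKM against 39.9 to 53.0 (-0.72 ± 0.07, edgeR adjusted p = 5.48e-07). The chromatin assembly factor subunits Chaf1a and Chaf1b differed by -0.68 ± 0.05 and -0.56 ± 0.06, and Slbp, which binds histone mRNA, by -0.45 ± 0.05. Of the E2F activators, E2f1 differed by -0.27 ± 0.08 (edgeR adjusted p = 0.00909) and E2f2 did not pass (0.04 ± 0.06, edgeR adjusted p = 0.579). Of the 34 genes with a RefSeq promoter, those with an E2F-type word had a median difference of -0.67 and those without one -0.59, and over all tested genes these medians were -0.05 and 0.02. Among the genes whose words are printed above, Orc1 differed by -1.02 and Pola1 by -0.17.

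**Figure D2:**
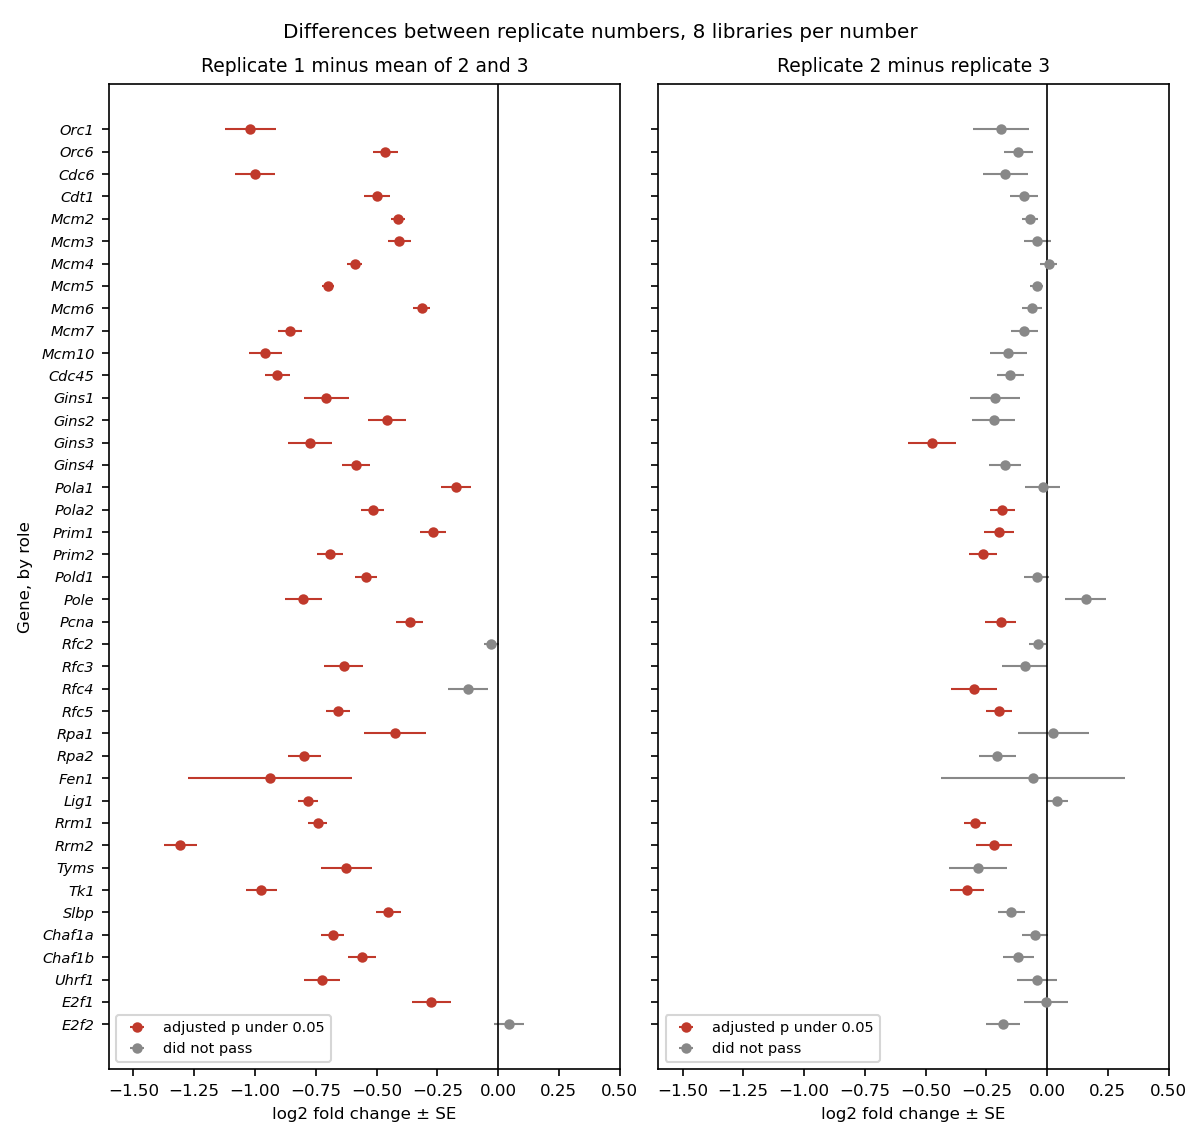
Log2 fold change ± SE of each of the 41 genes for replicate 1 minus the mean of replicates 2 and 3 (left) and for replicate 2 minus replicate 3 (right), from 8 libraries per number. Red points passed an adjusted p under 0.05: 38 genes on the left, from -1.31 for Rrm2 to -0.17 for Pola1, and 10 on the right.

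Within each group by itself, 36 to 40 of the 41 genes were lower in replicate 1 than in the mean of the other libraries, and the median log2 difference was -0.51 to -0.75. Fitted only on the groups without E2 the contrast called 35 genes, and only on the groups with E2 34, with the shares over all tested genes not given for these fits. Depth ranges of the numbers overlapped: replicate 1 held 42.1 to 57.7 M estimated counts, replicate 2 44.7 to 59.4 M and replicate 3 51.4 to 68.8 M. Mitochondrially encoded genes took 4.78 to 5.38%, 4.79 to 5.71% and 4.76 to 5.95%. Mast cell markers were higher in replicate 1. Of 10 tested markers 6 were called higher (22.6% of all tested genes) and 0 lower (21.5%). Their median was 0.35, and Tpsab1 and Cpa3 were among those called (0.80 and 0.52). Their summed level was 1112 to 1292 FPKM in replicate 1, 866 to 1131 in replicate 2 and 851 to 1107 in replicate 3, and their part in the result was not tested. Among them Kit (0.13, edgeR adjusted p = 0.0566), Gata2 and Hdc did not pass.

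The comparison of replicate 2 with replicate 3 gave fewer calls. Of the 41 genes, 10 were lower in replicate 2 than in replicate 3 and 0 higher, against 8.78% lower and 10.6% higher over all tested genes, and the median was -0.15. The genes were Rrm1 (-0.30 ± 0.04, edgeR adjusted p = 0.000366), Tk1, Gins3, Prim1, Prim2, Pola2, Rfc4, Rfc5, Pcna and Rrm2. Rrm1 was at 23.4 to 32.5 FPKM in replicate 2 and 29.8 to 35.1 in replicate 3, and was lower in replicate 2 in 8 of 8 groups. Gins3 had the largest difference, -0.47 ± 0.10 (3.69 to 6.08 FPKM against 6.57 to 7.74), with no overlap. Origin licensing contributed 0 of the 10. The count was 5 to 14 when any single library was left out, 17 without the SH and SH_E2 libraries, 4 in the groups without E2 and 0 in the groups with E2. Shares over all tested genes are not given for these fits, which hold fewer libraries. The counts thus do not show a change particular to the members.

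The spread within groups was then compared with and without the replicate number. The median SD of log2 FPKM within groups was 0.39 over the 41 genes and 0.27 over all tested genes. With the replicate number taken out it was 0.12 and 0.19, and the SD fell in 40 of the 41 genes and in 10186 of the 12183 tested.

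**Figure D3:**
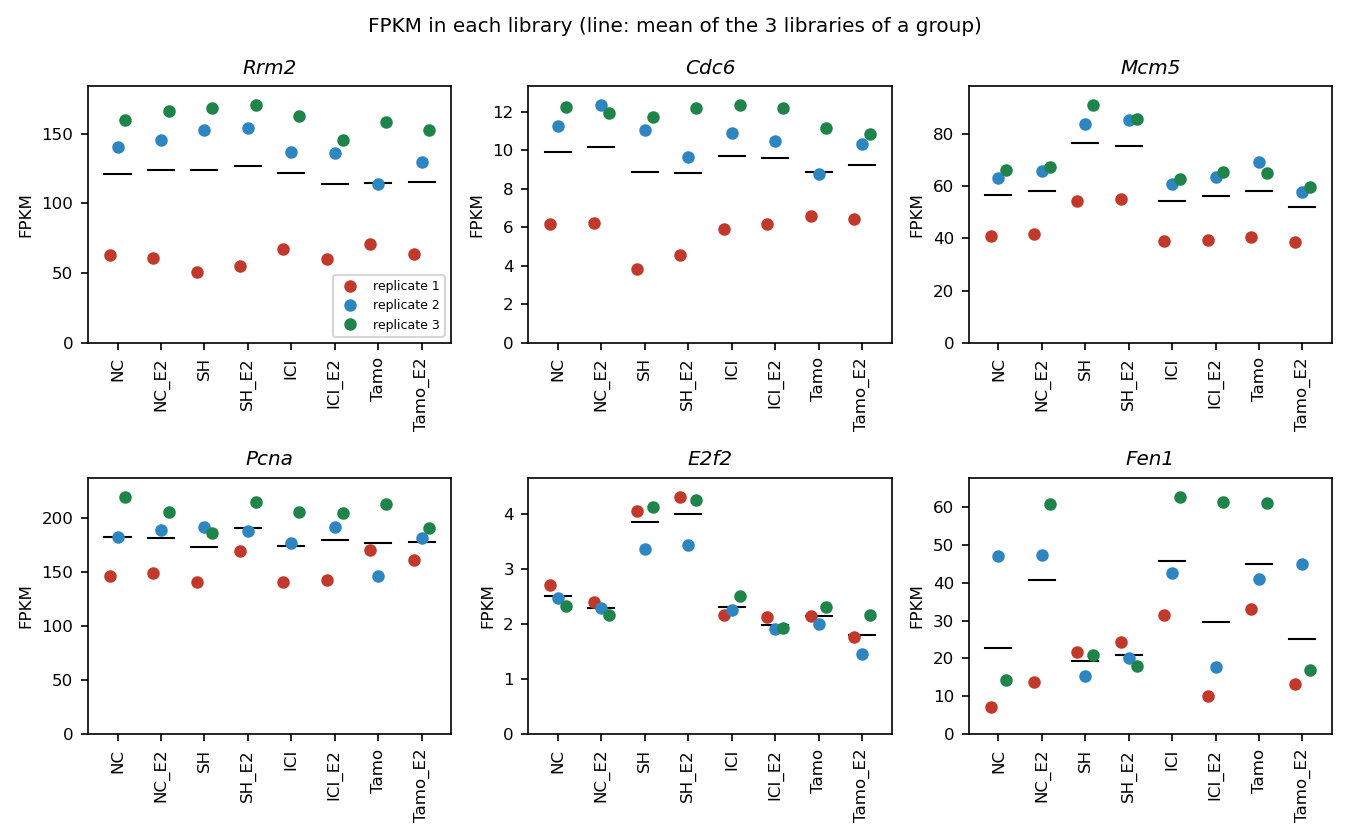
FPKM of 6 of the genes in every library, by group, coloured by replicate number, with a line at the mean of the 3 libraries of a group. Replicate 1 (red) is lowest in all groups for Rrm2, Cdc6 and Mcm5, E2f2 and Mcm5 are higher in SH and SH_E2, and Fen1 has replicate 1 lowest in 6 of 8 groups and the widest scatter.

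Whether E2 changed these genes was asked in each arm. None was called in any of them: 0 of 41 genes passed with E2 in NC, SH, ICI or Tamo cells, where 0% of all tested genes passed, and 0 of 41 passed in the mean effect over the 4 arms, where 0.0575% did (edgeR, Benjamini-Hochberg). At an unadjusted p under 0.05 there were 0 of 41 in each of these contrasts, against 2.003, 1.34, 1.84, 3.56 and 2.42% of all tested genes. With the replicate number as a block there were 4 of 41 in Tamo cells, 1 over the 4 arms and 0 in the others. The shares over all tested genes at this threshold were not counted in that fit, so these counts show neither an excess nor a lack. In all of these contrasts DESeq2 and limma also called 0 after adjustment. Medians over the 41 genes were 0.004 in NC, 0.03 in SH, -0.0002 in ICI and -0.002 in Tamo cells. Cdc6 had 9.90 ± 3.28 FPKM in NC and 10.2 ± 3.41 in NC_E2, Rrm2 121 ± 51.1 and 124 ± 56.1, and Pcna 183 ± 37.0 and 182 ± 28.8 (SD, n = 3 each).

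The smallest p values with E2 belonged to Fen1 (0.83 ± 0.67), Rfc4 (0.24 ± 0.20) and E2f1 (0.19 ± 0.19) in NC cells, and to E2f1 (-0.22 ± 0.19), Rfc4 (0.22 ± 0.20) and Gins2 (0.21 ± 0.26) in SH cells. In ICI cells they belonged to E2f2 (-0.20 ± 0.14), Fen1 (-0.60 ± 0.67) and E2f1 (0.16 ± 0.19), and in Tamo cells to Rfc2 (-0.15 ± 0.07), E2f2 (-0.27 ± 0.14) and Fen1 (-0.84 ± 0.67). None passed, and their signs varied between arms. In the mean over the 4 arms E2f2 had -0.14 ± 0.07, Rfc4 0.12 ± 0.10 and Prim1 0.07 ± 0.09.

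A missed threshold does not show that the genes did not respond, and the intervals give the limits. With the replicate number as a block, which takes out the shared spread, still 0 of 41 genes passed in any E2 contrast, against 0% of all tested genes in NC and SH, 0.00821% in ICI, 0.0246% in Tamo and 0.115% over the 4 arms. The 95% interval of the E2 effect then lay within a 1.5-fold change in either direction for 38 of 41 genes in NC cells, 39 in SH, 39 in ICI and 39 in Tamo cells, and for 40 over the 4 arms. Mcm5 had 0.04 with an interval from -0.06 to 0.13 in NC cells, and Cdc6 0.03 with -0.28 to 0.35. Without the block only 15 of 41 intervals in NC cells were this narrow, and Cdc6 had -0.89 to 0.95. Whether the E2 effect in SH, ICI or Tamo cells differed from that in NC was tested too: 0 of 41 genes and 0% of all tested genes passed for each, with 0, 0 and 1 of the 41 at an unadjusted p under 0.05, against 1.14, 1.083 and 4.06% of all tested genes. With the block these counts were 0, 1 and 2, and the shares over all tested genes were not counted in that fit. The gene without the block was Rfc2 for Tamo (-0.22 ± 0.10).

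The antiestrogen arms were compared with NC, which they share as control. For ICI and for Tamo, without and with E2, 0 of 41 genes passed. Of all tested genes 0.00821% passed for each drug without E2 and 0% with E2. Medians were -0.03 for ICI and -0.05 for Tamo without E2, and -0.06 and -0.08 with it. The smallest p without E2 belonged to Fen1 (0.996 ± 0.68), Rpa1 (-0.38 ± 0.29) and E2f2 (-0.12 ± 0.14) for ICI, and to E2f2 (-0.21 ± 0.14), Fen1 (0.99 ± 0.68) and Pola1 (-0.18 ± 0.14) for Tamo. With E2 they were E2f2 (-0.19 ± 0.14), Mcm3 (-0.16 ± 0.20) and Gins2 (-0.19 ± 0.26) for ICI. For Tamo they were Rfc2 (-0.18 ± 0.07), E2f2 (-0.34 ± 0.14) and E2f1 (-0.29 ± 0.19). In that comparison 2 of 41 genes had an unadjusted p under 0.05, against 2.47% of all tested genes. With the block 4 of 41 did, and the share over all tested genes was not counted in that fit. E2f2, for example, had 1.76, 1.46 and 2.16 FPKM in Tamo_E2 and 2.40, 2.30 and 2.16 in NC_E2. ICI and tamoxifen, an antagonist that leads to loss of the receptor and a partial agonist, were set against each other without E2 as the 1 pair of compounds in the design. Their doses are not in the labels, and 0 of 41 genes and 0% of all tested genes passed. The interval of the difference lay within 1.5-fold for 14 of 41 genes and within 2-fold for 38, and with the replicate block within 1.5-fold for 38. Rfc3 (0.30 ± 0.31), Cdt1 (-0.22 ± 0.24) and Pola1 (0.11 ± 0.14) had the smallest p. In the fits without the block, leaving out a replicate 1 library of NC or of the drug arm moved the medians against NC without E2. They ran from -0.20 to 0.11 for ICI and from -0.20 to 0.12 for Tamo. Such a step unbalances the replicate numbers between the groups, so these ranges include the difference between numbers. They do not measure how stable a drug effect is. For ICI and Tamo the fit with the block was not repeated without single libraries.

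**Figure D4:**
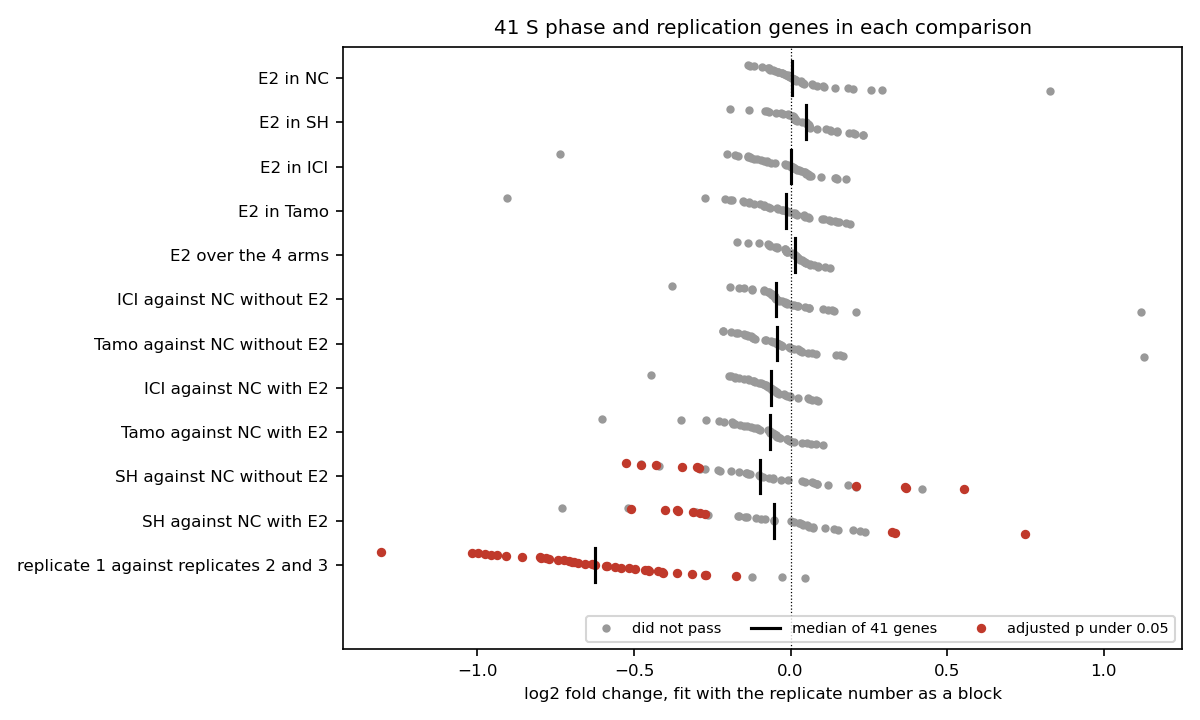
Log2 fold change of the 41 genes in 11 group comparisons and in the comparison of replicate 1 with replicates 2 and 3, each from the fit with the replicate number as a block. Points are genes spread vertically by rank, red ones passed an adjusted p under 0.05, and black bars are medians. Only SH against NC (10 genes without and 10 with E2) and the replicate numbers (38 genes) have red points, and the grey points at 1.12 and 1.13 for ICI and Tamo against NC without E2 are Fen1.

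In the hairpin cells E2f2 was higher, and no other member passed in the edgeR fit without the replicate block. That fit cannot show that the other members were at the NC level, because its spread includes the difference between replicate numbers. Its intervals lay within a 1.5-fold change for only 8 of 41 genes without E2 and 10 with E2. With the block they did so for 31 and 33 genes. E2f2 (ENSMUSG00000018983, chromosome 4, 136172394 to 136196057) had 4.05, 3.36 and 4.12 FPKM in SH and 4.32, 3.43 and 4.26 in SH_E2 (replicates 1, 2 and 3). In NC it had 2.71, 2.48 and 2.32, in NC_E2 2.40, 2.30 and 2.16, and in the ICI and Tamo arms 1.46 to 2.51. All 6 hairpin libraries were above all 18 others. The fitted difference was 0.56 ± 0.14 without E2 (edgeR adjusted p = 0.0139) and 0.76 ± 0.14 with E2 (edgeR adjusted p = 0.00142). E2f2 alone, 1 of 41 genes (2.44%), passed in each comparison, against 9.07% of all tested genes without E2 (4.92% higher, 4.15% lower) and 9.59% with E2 (5.30% higher, 4.28% lower). The 2 comparisons do not share libraries, since each has controls of its own. The ICI and Tamo comparisons above share those controls. Medians over the 41 genes were -0.06 and -0.02. Without E2 the call was lost after leaving out NC replicate 2 or 3 or SH replicate 1 or 3 (edgeR adjusted p 0.0506 to 0.0688), while the difference stayed at 0.49 to 0.64.

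Same-numbered libraries deviate together, and the fit with the number as a block gave smaller errors and called 10 of 41 genes in each comparison (edgeR, Benjamini-Hochberg), against 21.1% of all tested genes without E2 and 21.9% with it. The share of members, 24.4%, was thus near that of all genes. Without E2, 4 were higher (11% of all tested genes) and 6 lower (10.2%), and with E2 3 were higher (11.4%) and 7 lower (10.5%). Called in both, in the same direction, were 8 genes: E2f2, Mcm5 and Chaf1b higher, and Cdt1, Mcm2, Mcm7, Pola2 and Pold1 lower. The share of all tested genes called in both is not given, so this overlap is not shown to be particular to the members. The called members went in both directions, also within the MCM ring, and so did the calls over all tested genes.

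Mcm5 had 40.8, 63.1 and 66.0 FPKM in NC (replicates 1, 2 and 3) and 54.3, 83.9 and 91.1 in SH. It was higher in SH for each number, although the groups overlap when numbers are mixed, and with the block the difference was 0.37 ± 0.05 without E2 (edgeR adjusted p = 1.23e-05) and 0.33 ± 0.05 with it (edgeR adjusted p = 4.48e-05). Mcm2, a neighbour in the same ring, had 47.4, 56.6 and 59.9 FPKM in NC and 36.5, 50.9 and 52.6 in SH, lower for each number (-0.30 ± 0.05, edgeR adjusted p = 0.000471, and -0.29 ± 0.05, edgeR adjusted p = 0.000612). Mcm7 (-0.29 ± 0.09 and -0.27 ± 0.09) was lower too, and Mcm3 passed only with E2 (-0.36 ± 0.09). When 1 library of the comparison was left out, Mcm7 kept its call in only 2 of 6 fits without E2. With E2 it did so in 1 of 6, and Mcm3 in 5 of 6. The loading factor Cdt1 had 21.4, 26.5 and 27.8 FPKM in NC and 13.7, 20.8 and 22.9 in SH (-0.48 ± 0.10 and -0.51 ± 0.10 with the block).

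Pola2 (chromosome 19, 5940542 to 5964202), the regulatory subunit of polymerase alpha, had 8.92, 10.5 and 12.4 FPKM in NC and 5.21, 8.27 and 10.0 in SH. It had the largest fall of the 41 genes without E2 (-0.53 ± 0.08, edgeR adjusted p = 0.000198 with the block). Of the 450 tested genes of chromosome 19, 39.8% were called lower in SH without E2 in the same fit, with a median of -0.33, against 9.02% of the tested genes of all other chromosomes (median 0.01). The part of this chromosome-wide difference in the result for Pola2 was not tested. The only other member on that chromosome is Fen1, which had 21.7, 15.4 and 20.8 FPKM in SH, inside its range in NC.

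Other members were called with the block as well. Chaf1b, a chromatin assembly factor subunit, was higher (0.36 ± 0.10 and 0.33 ± 0.10), but kept its call in only 3 of 6 fits that left out a library without E2 and in 2 of 6 with E2, where its difference was 0.22 without SH_E2 replicate 2 (edgeR adjusted p = 0.170). Pold1 was lower (-0.35 ± 0.08 and -0.31 ± 0.08) and kept its call in 5 of 6 such fits without E2 and in 3 of 6 with E2. Cdc45 (-0.43 ± 0.09) and Rfc2 (0.21 ± 0.06) passed only without E2, and Mcm10 (-0.36 ± 0.12) only with it. Of these, Cdc45 kept its call in 6 of 6 fits, Rfc2 in 3 and Mcm10 in 1. Whether these effects differ between the comparisons was tested as the interaction with E2, where 0 members passed. Leaving out each library of the comparison in turn, Cdt1, E2f2, Mcm2, Mcm5 and Pola2 kept their call in all 6 fits of each comparison. The count was 7 to 11 without E2 and 5 to 10 with E2, with 5 after leaving out NC_E2 replicate 1 and 6 after leaving out SH_E2 replicate 1. On replicates 2 and 3 alone with the block, only Mcm5 and Pola2 passed without E2, and Mcm5, Pola2, Mcm2 and E2f2 with it. All these fits hold fewer libraries, and shares over all tested genes are not given for them.

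**Figure D5:**
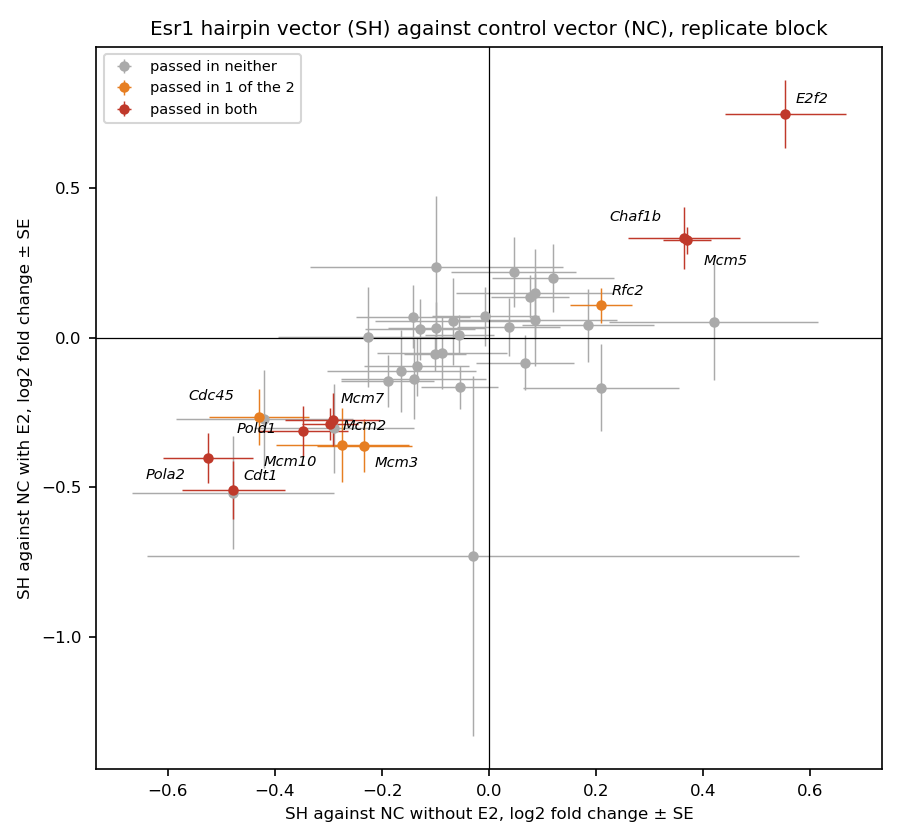
Log2 fold change ± SE of the 41 genes in SH against NC, without E2 (horizontal) and with E2 (vertical), from the fit with the replicate block. The 8 genes that passed in both (red) lie in the upper right (E2f2, Mcm5, Chaf1b) and lower left, and the grey point near -0.73 on the vertical axis with the long error bars is Fen1.

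Markers of mast cells and macrophages differed in the hairpin cells too. Of 10 tested mast cell markers, without E2, 1 was higher (Cpa3, 1.18) and 3 lower, among them Tpsab1 (-2.77) and Tpsb2 (-3.34). Tpsab1 averaged 3.99 FPKM in NC and 0.597 in SH. Tpsb2 was near the floor, with means of 0.882 and 0.0803 FPKM and at most 1.48 in any library. It met the filter of 1 FPKM only through groups other than SH and SH_E2, so the size of its fall carries little weight. Of all tested genes 4.92% were higher and 4.15% lower. The summed level of mast cell markers was 1059 to 1292 FPKM in the SH arm and 851 to 1133 in the NC arm. Cpa3 alone averaged 517 FPKM in SH and 219 in NC, so the sums do not show that the markers rose as a set. The 4 macrophage markers summed to 29.7 to 36.1 FPKM in the SH arm and 22.4 to 26.0 in the NC arm, with 1 of 2 tested, Lyz2, higher (1.24), while Csf1r, their defining receptor, was near 0 in all libraries. The part of these differences in the results above was not tested.

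Of the 41 genes, 10 are overlapped on the opposite strand by a gene that averaged 1 FPKM or more: Orc6, Mcm7, Cdc45, Gins2, Rfc2, Rfc4, Rfc5, Fen1, Tk1 and Chaf1a. How far reads of the partner were counted with these genes was not tested. The partners with the highest levels were Tmem258 (57.5 FPKM, opposite Fen1), Cops6 (55.1 FPKM, opposite Mcm7) and Lat2 (43.2 FPKM, opposite Rfc2).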

How the data were processed

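Cutadapt, HISAT2 and GRCm38 are named in the submitters' processing notes; for the quantifier, annotation and strand protocol the tool or setting is not stated in the labels or headers. The deposited table holds FPKM, scaled by gene length and depth, per the file headers. Its deposited whole-number count columns were treated as estimated counts, because 16.2% of the low values equal 4. Libraries held 42.1 to 68.8 M estimated counts. Genes reaching 1 FPKM in 3 or more libraries (12183 of 55385, of which 28735 had a count) were scaled by TMM and fitted by quasi-likelihood in edgeR 4.0.16 (R 4.3.3), all 24 libraries together with 1 mean per group, two-sided, with Benjamini-Hochberg adjustment over all genes tested and a threshold of 0.05. The SE of a log2 value is its size divided by the root of the F statistic; errors of FPKM are SD. In comparisons of replicate numbers the number was a term of the fit, and elsewhere it was an alternative block.

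Whether numbers pair the libraries was checked in the data. Within every pair of groups compared, deviations from group means correlated across genes at 0.113 to 0.572 for the same number. The mean for different numbers, -0.21 to -0.12, follows from centring on group means and is no separate evidence. Over all pairs of groups, 80 of 84 same-number pairs were over 0.1 (lowest -0.03), against 14 of 168 pairs with different numbers. In the pairs of groups compared all same-number values were over 0.1, so the numbers were taken to pair the libraries. The labels do not say so.

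Alternatives were DESeq2 1.42.0, its size factors in edgeR, limma 3.58.1 on log2(FPKM + 1) and log2(FPKM + 0.1), no filter, counts divided by 4, subsets of libraries and leaving out each library. Chosen after seeing the data were the fits on groups with or without E2 alone and the subsets of the block fits of SH against NC. The code was tested on simulated data. The 41 genes, the lists and the tests were chosen with earlier results of these data known. Members named are a fixed set of 23 across the roles, the 4 rising and 4 falling with the largest change among those that passed, and the 3 with the smallest p where none passed. From each neighbouring list up to 2 rising and 2 falling genes that passed are named. Other members are named to complete a complex, a count or a comparison, and were chosen after their values were seen. Of the neighbouring lists, 1 gene that the rule would name is not reported here; the counts include it.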

Additional observations from a re-analysis of the deposited data

How the results depend on the processing

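No call reversed; medians near 0 took either sign when single libraries were left out. Under the alternatives with all libraries of the groups concerned, the replicate 1 comparison called 34 to 38 members. In SH against NC without E2 the count of 1 was 2 with DESeq2, 2 with limma at a pseudocount of 1, 2 with limma at 0.1, and 0 with no filter on low values (E2f2 adjusted p = 0.0662) or on the libraries of the contrast only (0.0944). With the replicate block, that is the pairing by number, it was 10 without E2 and 10 with E2, where the median became -0.05147. On replicates 2 and 3 alone the count with E2 was 0, and with the block 2 without and 4 with E2. In ICI against NC without E2 the median of -0.03 became -0.04742 with the block and -0.04273 with limma at 0.1. The block changed no other count. For replicate 2 against 3 the count of 10 became 17 without the SH and SH_E2 libraries, 4 in groups without E2 and 0 in groups with E2 (median -0.09365). The cause was not tested. For subsets of libraries and for fits without a single library, shares over all tested genes are not given, so those counts describe the members only.

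Leaving out each library in turn gave ranges of the median over the 41 genes. The E2 effect in NC ran from -0.1597 to 0.1803, that in SH from -0.1962 to 0.2015, that in ICI from -0.1686 to 0.1901, that in Tamo from -0.1707 to 0.1644 and the mean effect from -0.05092 to 0.05779. For the E2 effect minus that in NC they were -0.182 to 0.2203 for SH, -0.2112 to 0.1609 for ICI and -0.205 to 0.1485 for Tamo. Without E2, against NC, they were -0.2397 to 0.1123 for SH, -0.1993 to 0.1123 for ICI and -0.2042 to 0.1237 for Tamo; with E2, -0.2621 to 0.1291, -0.2392 to 0.1313 and -0.2574 to 0.07564. For ICI against Tamo the range was -0.1505 to 0.1954, and for replicate 2 against 3 -0.1571 to -0.09833. Most extremes came from leaving out a replicate 1 library. The group comparisons here were fitted without the block, where such a step unbalances the replicate numbers between groups. Their ranges thus include the difference between numbers. Counts ranged from 0 to 1 for SH without E2, from 36 to 38 for replicate 1, from 5 (without ICI replicate 2) to 14 for replicate 2 against 3, and with the block from 7 to 11 for SH without E2 and from 5 to 10 with E2.

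E2f2, the member with the lowest mean FPKM, had 407 to 1603 estimated counts per library and Pcna, that with the highest, 17445 to 39759. The design, with 3 libraries a group whose replicate number carries much of the spread, left only 15 of 41 genes with an E2 interval within 1.5-fold in NC without the block.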

Other observations

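Genes next to the 41 in the same processes were counted in lists that do not share members with them. For the replicate 1 comparison, 21.5% of all tested genes were lower and 22.6% higher. In replicate 1 against replicates 2 and 3, 23 of 35 other origin and fork genes were lower and 2 higher (median -0.30), 8 of 11 other nucleotide supply genes lower and 1 higher (-0.25), and 6 of 10 other chromatin and histone supply genes lower and 2 higher (-0.42). The clamp loader variant subunit Chtf18 fell by 1.26 and the checkpoint mediator Clspn by 1.081, whereas Rpa3, the small RPA subunit, rose by 0.47 and Rrm2b, the p53-regulated reductase subunit, by 0.67. Of 16 tested E2F, RB and S phase kinase genes, 8 were lower and 1 higher (median -0.19), led by the repressors E2f7 (-1.09) and E2f8 (-0.98), while the RB relative Rbl2 was higher (0.47). All 20 mitosis genes were lower, from -1.29 for the kinesin gene Kif20a to -0.77 (median -0.94), against a median of -0.62 over the 41 replication genes. Their summed level was 250 to 312 FPKM in replicate 1, 441 to 532 in replicate 2 and 556 to 599 in replicate 3. Of 12 S phase checkpoint and repair genes 8 were lower, such as the exonuclease gene Exo1 (-1.01), and 1 was higher, the kinase gene Wee1 (0.16). Of 10 tested genes in a list of D cyclins and CDK inhibitors, which also holds the kinase gene Cdk6, 2 were lower. They were Cdk6 (-0.24) and Ccnd1 (-0.20), and 1, Ccnd2 (0.38), was higher.

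In SH against NC without E2 0 to 3 genes of each of these lists passed, where 9.07% of all tested genes did. The lists are small and differ in size. The share was above that of all genes in the list of E2F, RB and S phase kinase genes (Rbl2, E2f3 and E2f4). It was also above it in the list with the D cyclins (among them Ccnd1 and Ccnd2), and below it in the others. Ccnd1, the cyclin that starts RB phosphorylation, had 121 ± 7.01 FPKM in NC and 49.1 ± 7.71 in SH (SD, n = 3; -1.35 ± 0.14, edgeR adjusted p = 4.76e-06), and Ccnd2 65.0 ± 14.5 and 37.5 ± 10.4 (-0.85 ± 0.22, edgeR adjusted p = 0.0171). The mismatch repair gene Msh6 was higher (25.6 ± 0.394 and 39.2 ± 1.43 FPKM, 0.56 ± 0.08), as were Donson, a replication fork gene (0.55 ± 0.13), Rbl2 (0.87 ± 0.24) and E2f3 (0.39 ± 0.11). E2f4 (-0.32 ± 0.08) and Orc5 (-0.57 ± 0.16) were lower. Of 20 mitosis genes 0 passed in edgeR without the block. With the replicate block 2 were higher and 3 lower, where 11% of all tested genes were higher and 10.2% lower. With E2 in the mean over the 4 arms, 0 genes of these lists passed, against 0.0575% of all tested genes.

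Between replicates 2 and 3, 16 of 20 mitosis genes were lower in replicate 2 (median -0.28) and 8 of 11 other nucleotide supply genes, such as Dctpp1 (-0.45) and Dut (-0.40), were lower too. Of 35 other origin and fork genes 3 were lower. The share of all tested genes lower in replicate 2 was 8.78%.

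Of 72 histone genes recognised by name only 16 were tested, and 11 of the 16 had a median under 1 FPKM, so histone expression was not followed further.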
